A study of Mus musculus with 13 samples.

Results

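The 10 genes described here encode the main apolipoproteins of liver-made lipoproteins and the enzyme that loads lipid onto them: Apob, Mttp, Apoa1, Apoa2, Apoa4, Apoa5, Apoc1, Apoc2, Apoc3 and Apoe. They were chosen by name from the 54532 genes of the deposited count table, and each name matched 1 row. They were measured by RNA sequencing in 13 mouse liver libraries. All mice were wild-type C57 BL6 animals aged 8 weeks. The GalN/LPS model combines D-galactosamine, which depletes uridine nucleotides in hepatocytes and blocks their transcription, with bacterial lipopolysaccharide, and it injures the liver acutely. The compound under study was dmPGE2, a prostaglandin E2 analogue. There were 4 pretreated libraries, from livers given dmPGE2 at 300 µg/kg intraperitoneally 1 h before 500 mg/kg D-galactosamine with 5 µg/kg lipopolysaccharide. A further 3 libraries came from livers given GalN/LPS alone, 3 from livers given dmPGE2 alone at 300 µg/kg, and 3 from livers given saline. Livers were collected at 6 h. The pretreated livers had received dmPGE2 before that interval began, so the time after dmPGE2 may differ from that of livers given dmPGE2 alone, for which the design text also gives 6 h. Whether each library stands for a separate animal is not stated, so the spread behind the p-values is that between libraries and may be partly technical. The labels of the samples give GalN/LPS, while the design text of the series names the mice AILI, and the sample labels were followed.

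Very-low-density lipoproteins are built in the endoplasmic reticulum of hepatocytes around a single molecule of apolipoprotein B, onto which the microsomal triglyceride transfer protein, encoded by Mttp, loads triglyceride. High-density lipoproteins form around apolipoproteins A-I and A-II. The smaller exchangeable apolipoproteins sit on the surface of these particles and set how they are handled in plasma: C-II activates lipoprotein lipase, C-III inhibits it, A-V promotes it, and E binds the receptors that clear remnants. Many of these messenger RNAs are long-lived and among the most abundant in the liver.

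The libraries held between 14829838 and 20777809 counts, and the members together held between 4.15% and 5.75% of them. Liver tissue was checked against 12 hepatocyte markers, of which 11 were matched in the table and all 11 were detected in each group. Intestinal epithelium, the other main site of apolipoprotein synthesis, was checked with 10 markers, 5 or 6 of which were at 0 in every library of a group. Levels are counts scaled to a common library size (CPM). Summed, the 10 were at 46.3 to 66.4 CPM in saline and 63.7 to 115 CPM in pretreated livers. Fabp2 averaged 54.2 CPM in saline and 87.1 CPM in pretreated livers, and Apoa4 51.8 and 45.7 CPM. Against saline, edgeR called Fabp2 higher in pretreated livers (log2 fold change 0.68, adjusted p = 0.0218), but not with library totals (-0.02). Lgr5 was called lower (-2.98). The part of intestinal RNA in these levels was not tested. TMM factors, with which edgeR scales libraries so that most genes do not change on average, differed by group. They were 0.683 to 0.830 in pretreated, 0.904 to 1.14 in GalN/LPS, 1.16 to 1.28 in dmPGE2 and 1.17 to 1.18 in saline libraries. Counts of calls, and most fold changes of the members, are therefore given with TMM scaling and with scaling by library totals. Values are on the TMM scale where totals are not named. Between these scalings the median log2 fold change of the 14280 genes tested shifted to -0.61 with totals from -0.10 with TMM for pretreated against GalN/LPS. For GalN/LPS against saline it was -0.15 with totals and 0.02 with TMM, and for pretreated against saline -0.54 with totals and 0.14 with TMM. In bulk liver, fewer hepatocytes and less RNA per hepatocyte cannot be told apart.

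The coordinates below are those of the deposited table, on GRCm38, and equal the GENCODE M21 gene spans. A cluster on chromosome 9 holds Apoa1 (46228580 to 46230466, plus strand), Apoc3 (46232933 to 46235636, minus strand), Apoa4 (46240696 to 46243459, plus strand) and Apoa5 (46268633 to 46271919, plus strand), spanning 43340 bases. A second cluster on chromosome 7, all on the minus strand, holds Apoc2 (19671579 to 19677941), Apoc1 (19689481 to 19692660) and Apoe (19696109 to 19699188), spanning 27610 bases. Apob lies on chromosome 12 (7977648 to 8016835, plus strand), Mttp on chromosome 3 (138089854 to 138144968, minus strand) and Apoa2 on chromosome 1 (171225054 to 171226379, plus strand). Upstream sequences are shown for Apoa5, Apoa1 and Apob, since they are the members whose window holds the same short motif, and Apoa5 was called lower after GalN/LPS while Apoa1 and Apob were not called. They run from base -250 to base -51 of the RefSeq start (GRCm38.p6, plus strand), at chr9:46268383-46268582, chr9:46228380-46228579 and chr12:7977427-7977626. Capitals mark TGTTTGC, a motif of forkhead factors, or its reverse complement.
Apoa5: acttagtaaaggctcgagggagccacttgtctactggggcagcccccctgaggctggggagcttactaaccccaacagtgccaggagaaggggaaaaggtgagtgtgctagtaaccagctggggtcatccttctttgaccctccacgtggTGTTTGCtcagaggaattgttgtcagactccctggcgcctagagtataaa
Apoa1: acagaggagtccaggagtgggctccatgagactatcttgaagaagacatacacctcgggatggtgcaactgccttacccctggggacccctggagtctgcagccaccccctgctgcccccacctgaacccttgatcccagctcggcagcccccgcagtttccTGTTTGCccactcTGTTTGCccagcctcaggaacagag
Apob: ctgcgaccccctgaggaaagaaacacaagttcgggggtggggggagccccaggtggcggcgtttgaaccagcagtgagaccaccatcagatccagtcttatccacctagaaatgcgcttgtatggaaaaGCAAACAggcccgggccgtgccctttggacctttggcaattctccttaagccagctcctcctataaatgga

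A window of this length was present for 8 of the 10 members, all but Apoc1 and Apoc3. TGTTTGC was found on either strand in 3 of these 8 windows, once each in Apoa5 and Apob and at 2 places in Apoa1, and in 3.55% of 32851 windows of the same length over all genes. The related forkhead motif TGTTTAC was found in Apoa2 and in 2.58% of all windows. TTGCNNAA, bound by C/EBP factors, was found in Apob and in 8.11% of windows. AGGTCA, a nuclear receptor motif, was found in Apoc2 and in 11.4% of windows. GTTAAT, an HNF1 motif, was also found in Apoc2 and in 5.33% of windows. CAAAGTCCA, an HNF4 site, was found in 0 of the 8 and in 0.295% of windows. Each motif was searched on both strands, no set was tested, and a match describes letters only.

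Scaled for gene length, the members kept much the same order in all groups. The share of each in the summed length-scaled counts of the 10 members was highest for Apoa2, which ranked 1 in all 13 libraries. It held 35.7% ± 1.82 of this sum in pretreated, 32.9% ± 2.04 in GalN/LPS, 32.5% ± 0.401 in dmPGE2 and 32.4% ± 2.72 in saline livers (SD). Apoa1 and Apoe followed at ranks 2 and 3. Apoe stood above Apoa1 in every GalN/LPS library, with 26.4% ± 1.13 against 21.6% ± 1.76, and also in every dmPGE2 library, with 25.3% ± 0.50 against 23.0% ± 1.42. Their ranges overlapped in pretreated and saline livers. Apoc1 was at rank 4 and Apoc3 at rank 5 in every library, and Apoa4 and Apoc2 were at ranks 9 and 10. Apob, Apoa5 and Mttp exchanged ranks 6 to 8. Apoa5 held 0.168% ± 0.0212 of the sum in pretreated, 0.244% ± 0.0360 in GalN/LPS, 1.18% ± 0.0800 in dmPGE2 and 1.05% ± 0.274 in saline livers. Apob held 1.17% ± 0.110 in pretreated, 0.840% ± 0.0867 in GalN/LPS, 1.17% ± 0.127 in dmPGE2 and 0.722% ± 0.0642 in saline livers. Apob and Apoa5 thus did not differ beyond their spread in dmPGE2 livers, where their order changed between libraries. In saline livers their ranges over the group overlapped, but Apoa5 stood above Apob within every library. As a ratio to Apoa1 in the same library, Apoa5 was 5.11%, 3.15% and 4.33% there, and Apob 3.07%, 2.79% and 2.85%. In injured livers Apob stood above Apoa5 in every library.

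**Figure D1:**
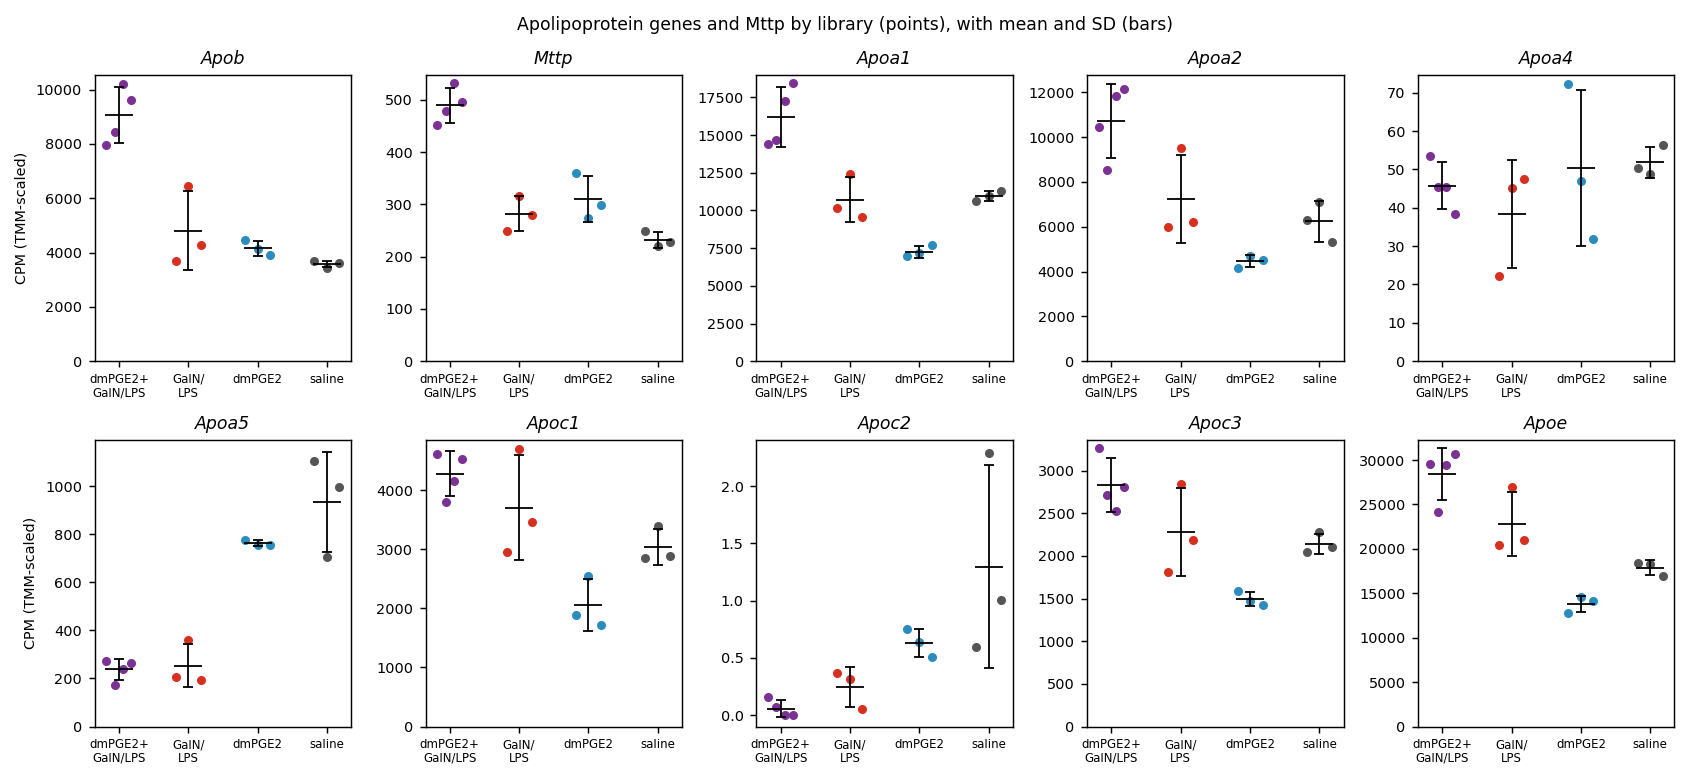
TMM-scaled counts (CPM, linear axes) of each member in every library, with points for libraries and black bars for the mean and SD of each group. Apoa5 is at most 358 CPM in injured livers and at least 703 CPM in the others, while Apob and Mttp are highest in the 4 pretreated livers.

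GalN/LPS was set against saline first, to ask what injury did to these messenger RNAs. Apoa5 fell strongly, and Apoc2, which was scarcely counted at all, was lower as well. The other 8 members, including the major structural apolipoproteins Apob, Apoa1, Apoa2 and Apoe, did not pass the test. Thus 0 of 10 members were called higher and 2 of 10 lower with TMM and with totals. Of all genes tested, 27.4% were called higher and 25.6% lower with TMM (21.5% and 30.0% with totals). The median log2 fold change of the members was 0.15 against 0.02 for all genes with TMM, and -0.04 against -0.15 with totals. All calls rest on edgeR's quasi-likelihood test over 14280 genes, with Benjamini-Hochberg adjustment and a threshold of 0.05. Over these libraries 2 of 10 members lay wholly above saline and 3 wholly below with TMM (30.3% and 29.5% of all genes), against 1 above and 4 below with totals (24.2% and 35.9%).

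Apoa5, which promotes the hydrolysis of plasma triglyceride by lipoprotein lipase, had TMM-scaled levels, in counts scaled to a common library size (CPM), of 208, 358 and 195 CPM in GalN/LPS livers, against 1106, 703 and 997 CPM in saline livers. Every GalN/LPS library was below every saline library, and the widest gap within a group was that between the lower saline library and the other 2. The log2 fold change was -1.88 ± 0.24 (SE, adjusted p = 7.93e-06) with TMM and -2.09 ± 0.19 with totals (adjusted p = 3.32e-07). It lay between -2.22 and -1.76 when any library of the 4 groups was left out.

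Apoc2, the activator of lipoprotein lipase, had 7, 5 and 1 counts in GalN/LPS libraries and 13, 46 and 21 in saline libraries. The groups did not overlap, but saline 2 alone held 46 of the 80 saline counts. The log2 fold change was -2.39 ± 0.65 (adjusted p = 0.00588) with TMM and -2.56 with totals (adjusted p = 0.00413). Without saline 2 the TMM value was -1.71 with an adjusted p of 0.0507, so the call rests on that library. On summed counts the ratio of GalN/LPS to saline was 0.188 with TMM scaling, with an exact 95% interval of 0.0959 to 0.340 that covers counting error only. Such counts are low beside the neighbours of Apoc2 in the cluster: over all 13 libraries Apoc2 had 139 counts, Apoc4, the next gene, 145910, and Apoe 4714744. In GENCODE M21 the read-through gene Gm44805 shares 646 of the 813 exonic bases of Apoc2 (79.5%) and its whole coding sequence, and Gm44805 had 2 counts. The counter's handling of reads in shared exons is not known here, and the part of this overlap in the low counts was not tested. The coding sequence that both genes share is printed to show the extent of the overlap. It was joined from the GENCODE M21 exons (GRCm38, minus strand, spanning chr7:19671761-19673601), with the start and stop codons in capitals.
Apoc2: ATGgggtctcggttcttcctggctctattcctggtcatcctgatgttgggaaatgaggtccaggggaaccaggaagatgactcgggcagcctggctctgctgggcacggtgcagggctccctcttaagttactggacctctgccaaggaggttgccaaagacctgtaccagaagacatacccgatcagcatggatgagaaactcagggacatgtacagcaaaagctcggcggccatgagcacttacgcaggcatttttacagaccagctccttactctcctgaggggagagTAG

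Among the members that did not pass, Apob, the structural protein of very-low-density lipoprotein, had 3681, 6463 and 4281 CPM in GalN/LPS livers, against 3674, 3450 and 3622 CPM in saline livers. The lowest GalN/LPS library exceeded the highest saline library by little, and GalN/LPS 2 stood well above the rest. The log2 fold change of Apob was 0.42 ± 0.20 (adjusted p = 0.0893), and it passed the test with DESeq2 (0.41, adjusted p = 0.0308) and in the edgeR fit that left out GalN/LPS 1 (0.58, adjusted p = 0.0296). Leaving out each library in turn gave 0.14 to 0.58, and with totals it was 0.22 ± 0.14 (adjusted p = 0.208) with overlapping groups. Mttp had 249, 316 and 280 CPM in GalN/LPS livers, against 250, 220 and 227 CPM in saline livers, and the groups overlapped (0.28 ± 0.14, adjusted p = 0.115, and 0.10 with totals). Apoa1, the main protein of high-density lipoprotein, had 10193, 12387 and 9584 CPM in GalN/LPS livers, against 10610, 10956 and 11276 CPM in saline livers. The saline values lay within the range of the GalN/LPS values, and the log2 fold change was -0.03 with a 95% interval of -0.41 to 0.35. With totals Apoa1 lay wholly below saline, at 10575 to 11594 CPM in GalN/LPS and 12566 to 13139 CPM in saline livers, but did not pass (-0.21 ± 0.12, adjusted p = 0.152). Apoe, the ligand of remnant receptors, had 20477, 26955 and 20948 CPM in GalN/LPS livers, against 18399, 18313 and 16908 CPM in saline livers (0.35 ± 0.19, adjusted p = 0.128). Its groups did not overlap, yet the difference did not pass the test, although it did with DESeq2 (0.34, adjusted p = 0.0204). With totals it was 0.17 ± 0.11 (adjusted p = 0.218), and the groups stayed apart. Apoa4, made chiefly by the intestine, averaged 38.3 ± 14.0 CPM in GalN/LPS and 51.8 ± 3.97 CPM in saline livers (SD, n = 3 each), a log2 fold change of -0.44 ± 0.27 (adjusted p = 0.189), which passed with no filter on low counts (-0.57, adjusted p = 0.00293) and was -0.62 with totals (adjusted p = 0.0693). Apoa2, Apoc1 and Apoc3 had log2 fold changes of 0.21, 0.28 and 0.09 with TMM, and of 0.01, 0.09 and -0.10 with totals. Apoc3, which inhibits lipoprotein lipase, thus had opposite signs on the 2 scales.

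**Figure D2:**
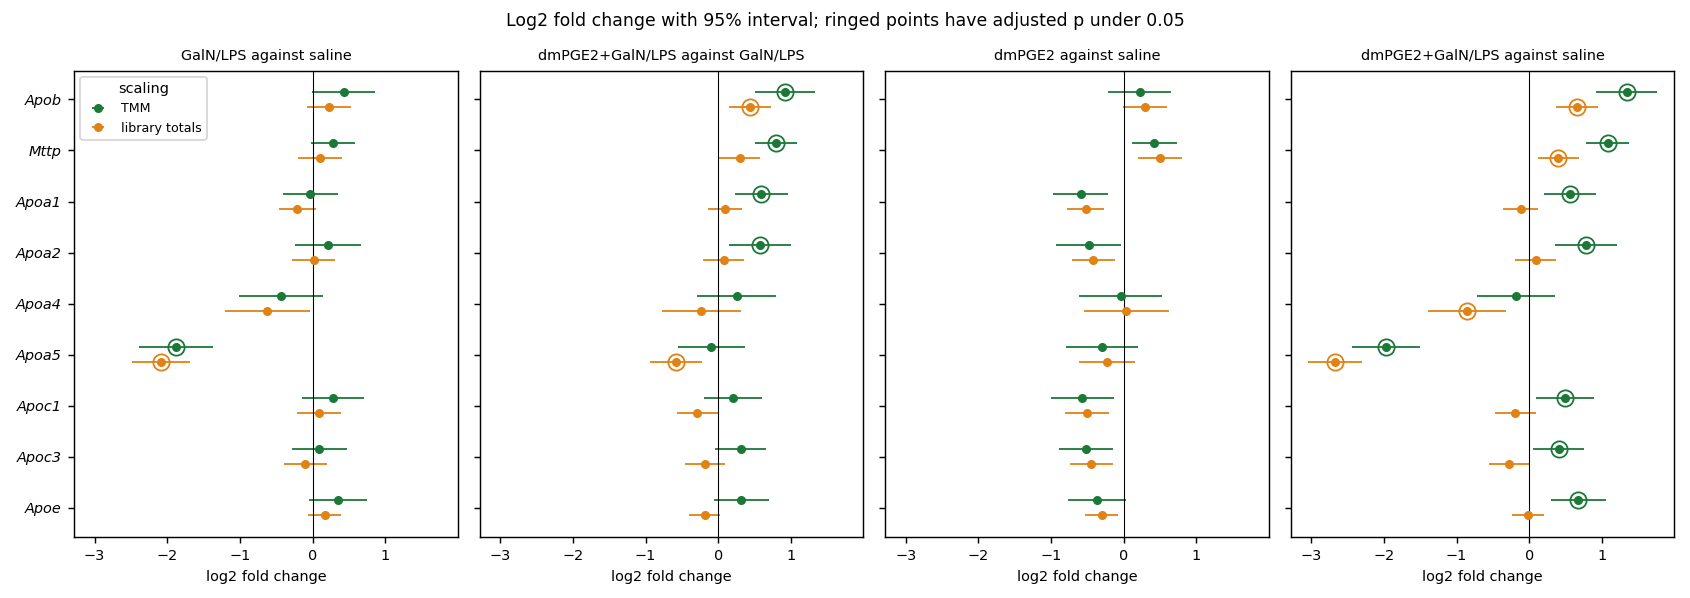
Log2 fold change (points) with 95% interval (lines) of 9 members in 4 comparisons, with TMM scaling in green and library totals in orange, and rings where the adjusted p was under 0.05. Apoa5 is about 2 log2 units lower in both comparisons of injured with saline livers, and the 2 scalings stand apart where pretreated livers are compared. Apoc2, with too few counts for the axis, is left out.

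Pretreated livers were then set against GalN/LPS livers, to ask what dmPGE2 given before injury did. With TMM scaling the genes of very-low-density lipoprotein assembly, Apob and Mttp, rose, as did Apoa1 and Apoa2, the main proteins of high-density lipoprotein. Apoa5 stayed at the low level of the GalN/LPS group. Thus 4 of 10 members were called higher and 0 lower, where 24.4% of all genes were called higher and 30.1% lower. With library totals 1 member was called higher (Apob) and 1 lower (Apoa5), where 4.33% of all genes were called higher and 47.6% lower. The members' median was 0.32 against -0.10 for all genes with TMM, and -0.18 against -0.61 with totals. Non-overlapping groups were found for 3 members above and 0 below with TMM (22.7% and 27.7% of all genes), and for 1 above and 3 below with totals (5.13% and 43.4%). Hepatocyte markers moved the same way: 11 of 11 were called higher with TMM (median 0.81) and 4 of 11 with totals. Their summed TMM-scaled level was 137982 to 215341 CPM in pretreated, 86909 to 126869 CPM in GalN/LPS, 67819 to 77661 CPM in dmPGE2 and 84891 to 102365 CPM in saline livers. Markers of Kupffer cells and macrophages moved in the opposite direction, with 11 of 12 called lower and summed levels of 389 to 634 CPM in pretreated against 825 to 1295 CPM in GalN/LPS livers. The part of cell composition in the members' changes was not tested.

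Apob had TMM-scaled levels of 7973, 8452, 10211 and 9632 CPM in pretreated livers, against 3681, 6463 and 4281 CPM in GalN/LPS livers. All pretreated libraries were above all GalN/LPS libraries. The log2 fold change was 0.92 ± 0.19 (adjusted p = 0.00123), or 1.89-fold. With library totals it was 0.43 ± 0.14 (adjusted p = 0.0135), and there pretreated 1, at 5720 CPM, lay below GalN/LPS 2, at 5842 CPM. Mttp had 453, 479, 533 and 496 CPM in pretreated livers, against 249, 316 and 280 CPM in GalN/LPS livers. The groups were far apart relative to their spread, with a log2 fold change of 0.80 ± 0.14 (adjusted p = 0.000275). With totals Mttp was still above in every library, but its log2 fold change of 0.30 ± 0.13 did not pass (adjusted p = 0.0733).

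Apoa1 had 14411, 14679, 17266 and 18434 CPM in pretreated livers, against 10193, 12387 and 9584 CPM in GalN/LPS livers. The groups did not overlap with TMM (0.60 ± 0.17, adjusted p = 0.00810), whereas with totals the log2 fold change was 0.09 (adjusted p = 0.524) and they did. The Apoa1 call was also lost in the edgeR fit with a replicate block (0.53, adjusted p = 0.0649). With limma it was lost on log2(FPKM + 0.1) (0.54, adjusted p = 0.0507) and on unfiltered log2(FPKM + 1) (0.54, adjusted p = 0.0806). Apoa2, the second protein of high-density lipoprotein, had 10445, 8532, 11837 and 12140 CPM in pretreated livers, against 5972, 9497 and 6234 CPM in GalN/LPS livers. Here pretreated 2 lay below GalN/LPS 2, so the groups overlapped (0.57 ± 0.20, adjusted p = 0.0256). The Apoa2 call was lost without GalN/LPS 1 (0.45, adjusted p = 0.112), GalN/LPS 3 (0.46, adjusted p = 0.112), pretreated 3 (0.52, adjusted p = 0.0662) or pretreated 4 (0.51, adjusted p = 0.0686), and with totals (0.08, adjusted p = 0.658). It was also lost in edgeR fits of the compared groups alone (0.56, adjusted p = 0.0629) and with a replicate block (0.53, adjusted p = 0.0909). The limma fits on log2(FPKM + 1), filtered or not, and on log2(FPKM + 0.1) did not call it either.

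Apoa5 had 272, 173, 241 and 264 CPM in pretreated livers, against 208, 358 and 195 CPM in GalN/LPS livers, and the groups overlapped (-0.10 ± 0.22, adjusted p = 0.728). With totals its levels were 195, 144, 171 and 180 CPM in pretreated livers, against 237, 323 and 216 CPM in GalN/LPS livers, all of the pretreated values below the others. That log2 fold change was -0.58 ± 0.17 (adjusted p = 0.00907), close to the median of all genes on that scale, -0.61. Apoc1, Apoc3 and Apoe were not called on either scale. Their log2 fold changes were 0.21, 0.31 and 0.32 with TMM and -0.29, -0.18 and -0.18 with totals. Without GalN/LPS 2, Apoc3 (0.51, adjusted p = 0.00954) and Apoe (0.47, adjusted p = 0.0181) passed with TMM. Apoa4 was 45.7 ± 6.13 CPM in pretreated and 38.3 ± 14.0 CPM in GalN/LPS livers (SD, n = 4 and 3), with a log2 fold change of 0.25 with TMM and -0.23 with totals. Apoc2 had 2, 1, 0 and 0 counts in pretreated libraries, against 7, 5 and 1 in GalN/LPS libraries, which overlapped. The ratio of summed counts was 0.245, with a counting interval of 0.0448 to 0.892, and the fitted change did not pass (adjusted p = 0.113).

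The pretreated and saline groups were also compared directly. This comparison shares its libraries with those above, so it adds no independent evidence. Apob, at 9067 ± 1033 CPM in pretreated and 3582 ± 117 CPM in saline livers (SD, n = 4 and 3), was 2.53-fold higher (log2 1.34 ± 0.20, adjusted p = 2.36e-05), and with totals 1.58-fold higher. Mttp, at 490 ± 33.6 CPM in pretreated and 232 ± 15.4 CPM in saline livers, was 2.11-fold higher with TMM and 1.32-fold with totals, and both passed. Apoa5 was lower by a log2 fold change of -1.98 ± 0.22 with TMM and -2.67 ± 0.17 with totals. In all, 7 members were called higher and 2 lower with TMM (34.8% and 30.2% of all genes), and 2 higher and 3 lower with totals (11.8% and 47.6%). The groups did not overlap for 7 members above and 2 below with TMM (32.6% and 29.2% of all genes), and for 2 above and 5 below with totals (11.8% and 47.6%). The genes called higher with TMM alone were Apoa1, Apoa2, Apoc1, Apoc3 and Apoe. Of these Apoa1 (-0.12), Apoc1 (-0.20), Apoc3 (-0.28) and Apoe (-0.02) had the opposite sign with totals. Apoa4 was called lower with totals (-0.86 ± 0.26, adjusted p = 0.00848). With TMM it was not called in the fit of all libraries (-0.18) but was in a fit of the 2 groups alone (-0.34, adjusted p = 0.0341). The Apoc1 call was lost without GalN/LPS 3, pretreated 1, 3 or 4, or saline 1 or 3, and its log2 fold change lay between 0.37 and 0.58 over all 13 fits that left out a library. The Apoc3 call was lost without GalN/LPS 3, pretreated 1, 2 or 4, dmPGE2 1 or 3, or any saline library, with a range of 0.28 to 0.46. Apoc2 had 3 summed counts in pretreated and 80 in saline libraries, a ratio of 0.0461 with a counting interval of 0.00930 to 0.140.

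For dmPGE2 against saline, without injury, edgeR called 0 of the 14280 genes (0% in each direction), so 0 of 10 members passed. At an unadjusted p under 0.05 there were 1990 genes with TMM, 5 of them members, and 1766 genes with totals, 6 of them members. With no filter on low counts edgeR called 290 of 26810 genes higher and 171 lower, with 0 members among them. DESeq2 called 137 genes higher and 140 lower, with 2 members among those lower. Apoa1 had TMM-scaled levels of 6947, 7155 and 7714 CPM in dmPGE2 livers, against 10610, 10956 and 11276 CPM in saline livers. All dmPGE2 libraries were lower, with a log2 fold change of -0.59 ± 0.18 (adjusted p = 0.172 with edgeR and 0.00134 with DESeq2). Apoc3 had 1591, 1470 and 1428 CPM in dmPGE2 livers, against 2048, 2274 and 2101 CPM in saline livers (-0.52 ± 0.18, adjusted p = 0.207 with edgeR and 0.0320 with DESeq2). Over the members 5 of 10 lay wholly below saline (Apoa1, Apoa2, Apoc1, Apoc3 and Apoe) and 2 wholly above (Apob and Mttp) with either scaling. The corresponding shares of all genes were 12.0% below and 14.3% above with TMM, and 7.38% and 18.2% with totals. Mttp had 359, 275 and 298 CPM in dmPGE2 livers, against 250, 220 and 227 CPM in saline livers (0.42 ± 0.14, adjusted p = 0.207). Apoa5 was 762 ± 11.8 CPM in dmPGE2 and 935 ± 208 CPM in saline livers (SD, n = 3 each), overlapping groups. With totals the log2 fold changes were -0.52 for Apoa1, -0.45 for Apoc3, 0.50 for Mttp and -0.23 for Apoa5, and 0 members passed.

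The effect of dmPGE2 in injured livers was compared with its effect in uninjured livers by the interaction term, the log2 fold change of pretreated against GalN/LPS less that of dmPGE2 against saline. With TMM it was above 0 and passed for 5 members, where 15.4% of all genes passed above 0 and 19.6% below. These were Apoa1 (1.19 ± 0.25, adjusted p = 0.00317), Apoa2 (1.05 ± 0.29, adjusted p = 0.0133), Apoc3 (0.83 ± 0.24, adjusted p = 0.0171), Apoc1 (0.78 ± 0.28, adjusted p = 0.0409) and Apoe (0.69 ± 0.26, adjusted p = 0.0484). With totals Apoa1 alone of the members passed (0.61 ± 0.16, adjusted p = 0.00896), where 1.28% of all genes passed above 0 and 36.4% below. For Apob the term was 0.70 (adjusted p = 0.0611), and it passed without GalN/LPS 2 (0.98, adjusted p = 0.0025). With all libraries it passed with DESeq2 (0.66, adjusted p = 0.0173). It also did with limma on filtered log2(FPKM + 1) (0.68, adjusted p = 0.0334) and log2(FPKM + 0.1) (0.68, adjusted p = 0.0351). The Apob term did not pass in the other alternatives. The Apoc1 call was lost without any single library other than GalN/LPS 2, pretreated 2 or dmPGE2 2, with terms between 0.64 and 0.99. The Apoe call was lost without any single library other than GalN/LPS 2 or pretreated 2, with terms between 0.62 and 0.83.

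Ratios of members within a library do not depend on how libraries are scaled. They were computed from length-scaled counts and tested by two-sided exact permutation over libraries, in a family of 26 tests of which none passed after Benjamini-Hochberg adjustment. The smallest adjusted p was 0.186. Apob over Apoa1 was 4.91%, 5.11%, 5.25% and 4.63% in pretreated livers, 3.20%, 4.63% and 3.96% in GalN/LPS livers, 5.68%, 5.13% and 4.49% in dmPGE2 livers, and 3.07%, 2.79% and 2.85% in saline livers. Every treated group lay wholly above saline, and pretreated lay wholly above GalN/LPS, by 0.35 on the log2 scale (exact p = 0.0286, the smallest that 4 against 3 libraries allow). The margin of that last comparison was narrow, since pretreated 4 and GalN/LPS 2 were both near 4.63%. Apoa5 over Apoa1 was 0.923%, 0.578%, 0.685% and 0.703% in pretreated livers, 1.00%, 1.42% and 1.00% in GalN/LPS livers, 5.47%, 5.17% and 4.80% in dmPGE2 livers, and 5.11%, 3.15% and 4.33% in saline livers. On this measure pretreated livers lay wholly below GalN/LPS livers (log2 difference -0.66, exact p = 0.0571), and both lay wholly below the uninjured groups. Apoa1 and Apoa5 lie at the 2 ends of the chromosome 9 cluster.

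Other pairs of the 2 clusters were compared likewise, and so were Mttp and Apob, which lie in neither cluster and on different chromosomes. Apoa4 over Apoa1 averaged 0.196% ± 0.0470 in pretreated, 0.245% ± 0.0949 in GalN/LPS, 0.479% ± 0.215 in dmPGE2 and 0.322% ± 0.0182 in saline livers. Pretreated livers lay wholly below saline (log2 difference -0.75, exact p = 0.0571, adjusted p = 0.248), and the other comparisons overlapped. Apoc2 over Apoe, on very few counts of Apoc2, was wholly lower in GalN/LPS than in saline livers (-2.96, exact p = 0.1, adjusted p = 0.260). It overlapped between dmPGE2 and saline livers, and it was not tested in pretreated livers, where 2 libraries had no Apoc2 count. Apoc3 over Apoa1 averaged 21.7% ± 4.49 in pretreated, 25.8% ± 3.57 in GalN/LPS, 25.2% ± 2.68 in dmPGE2 and 23.8% ± 1.32 in saline livers. All groups overlapped. Apoc1 over Apoe, neighbours on chromosome 7, averaged 43.3% ± 2.16 in pretreated, 46.4% ± 4.36 in GalN/LPS, 42.5% ± 7.62 in dmPGE2 and 48.9% ± 4.42 in saline livers, again with overlap throughout the 4 comparisons. Mttp over Apob averaged 12.2% ± 0.637 in pretreated, 13.6% ± 2.30 in GalN/LPS, 16.7% ± 1.65 in dmPGE2 and 14.5% ± 0.615 in saline livers. Pretreated livers lay wholly below saline on this ratio, by -0.26 on the log2 scale (exact p = 0.0286, adjusted p = 0.186).

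**Figure D3:**
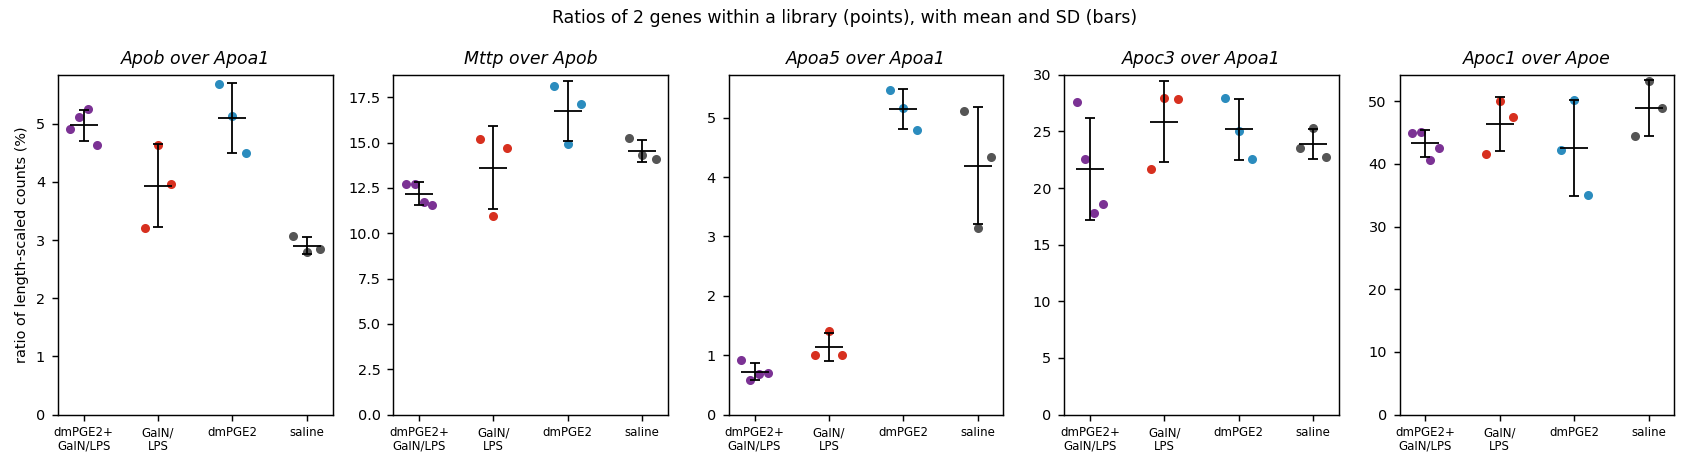
Ratio of length-scaled counts of 2 members within each library, in percent (axes from 0), with points for libraries and black bars for the mean and SD of each group. Apob over Apoa1 is lowest in saline livers, Apoa5 over Apoa1 is at most 1.42% in injured livers and at least 3.15% in the others. Mttp over Apob is at most 12.7% in pretreated and at least 14.1% in saline livers, and the remaining 2 ratios overlap between the groups compared.

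The members' joint share of all counts was 5.28% ± 0.147 in pretreated, 5.38% ± 0.317 in GalN/LPS, 4.24% ± 0.0893 in dmPGE2 and 5.30% ± 0.222 in saline livers. Injured and saline livers overlapped (exact permutation p = 0.800 for GalN/LPS and 0.886 for pretreated). The dmPGE2 libraries, at 4.15% to 4.33%, were all below the saline libraries, at 5.06% to 5.49% (exact permutation p = 0.1, the smallest that 3 against 3 libraries allow, and adjusted p = 0.4 over 4 comparisons).

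Across the 13 libraries, the log2 levels of the members fell into a few patterns, which are described without a test since libraries share groups and scaling. Apob and Mttp had a Pearson correlation of 0.95, and Apoa2 and Apoe of 0.97. Apoa5 correlated negatively with the abundant members, at -0.64 with Apob and -0.73 with Apoe. Of 8880 genes with a mean of at least 5 CPM, the most alike in pattern to Apoa5 were Lurap1l (0.98), Alas1 (0.97), which encodes the first enzyme of haem synthesis in liver, and Tfam (0.97), a mitochondrial transcription factor. Those most alike to Apob were Mut (0.99), the mitochondrial methylmalonyl-CoA mutase, Gfm2 (0.98) and Uqcrc2 (0.98). For Apoa1 they included Ttr (0.96), the plasma carrier transthyretin, and for Apoc1 its neighbour Apoc4 (0.96). For Apoa4 the highest correlation was 0.72, with Commd7 and Mup15.

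The genes that act with the members were read from 6 lists, described by counts and medians. Of all genes tested, 27.4% were called higher and 25.6% lower in GalN/LPS against saline (21.5% and 30.0% with totals). In pretreated against GalN/LPS these shares were 24.4% and 30.1% (4.33% and 47.6% with totals). Of 25 transcription factors and coregulators known to act on apolipoprotein genes, 1 was called higher and 19 lower in GalN/LPS against saline livers (median -1.71; 0 and 19 with totals). Nr1h4, the bile acid receptor FXR, was 22.2 ± 1.57 CPM in GalN/LPS and 138 ± 22.2 CPM in saline livers (-2.63 ± 0.14). Rxra, the partner of several nuclear receptors, fell as well (-2.20 ± 0.19), as did Prox1 (-2.77 ± 0.22). Hnf4a, the nuclear receptor on which many apolipoprotein promoters depend, was 454 ± 131 CPM in GalN/LPS and 372 ± 35.4 CPM in saline livers and did not pass (0.29 ± 0.19, adjusted p = 0.222). In pretreated against GalN/LPS livers 3 of the 25 were called higher and 13 lower (0 and 18 with totals). Hnf4a rose with TMM (0.63 ± 0.18, adjusted p = 0.00874) but not with totals (0.14). Cebpb fell on both scales (-1.60 ± 0.19 with TMM), as did Foxa1 (-1.45 ± 0.28), a forkhead factor. All 25 were uncalled in dmPGE2 against saline, as were all 14280 genes tested, so this says nothing particular about the regulators.

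Of the list for assembly and secretion of very-low-density lipoprotein, 21 of 22 genes were tested. In GalN/LPS against saline livers 4 were called higher and 5 lower (27.4% and 25.6% of all genes). Sort1, a sorting receptor of apolipoprotein B, was 6.22 ± 0.476 CPM in GalN/LPS and 17.7 ± 1.87 CPM in saline livers (-1.51 ± 0.15), and Tmem41b, a lipid scramblase of the endoplasmic reticulum, fell too (-2.02 ± 0.19). A1cf, which with Apobec1 edits the Apob messenger, rose (1.25 ± 0.25). In pretreated against GalN/LPS livers 15 of 21 were called higher and 1 lower with TMM (24.4% and 30.1% of all genes). With totals 3 were called higher and 5 lower (4.33% and 47.6%). Mia2, a cargo receptor for large secretory particles, was 445 ± 104 CPM in pretreated and 205 ± 38.8 CPM in GalN/LPS livers (1.12 ± 0.18), and it passed with totals too (0.61). P4hb, protein disulfide isomerase and the partner subunit of Mttp, rose by 0.78 ± 0.16 with TMM and 0.30 with totals (adjusted p = 0.000866 and 0.0486). Sec23a, a coat protein of the vesicles that leave the endoplasmic reticulum, passed on both scales as well (0.87 with TMM and 0.36 with totals). For genes of triglyceride and cholesteryl ester supply, 0 of 21 were called higher and 8 lower after GalN/LPS. Lpin2, a phosphatidate phosphatase, was 59.1 ± 19.2 CPM in GalN/LPS and 196 ± 46.9 CPM in saline livers (-1.73 ± 0.25). In pretreated against GalN/LPS livers 14 of 21 were called higher and 2 lower (2 and 3 with totals), with Lpin2 higher by 1.54 ± 0.23 and the lipid droplet coat gene Plin2 lower by a log2 fold change of -1.06 ± 0.20.

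**Figure D4:**
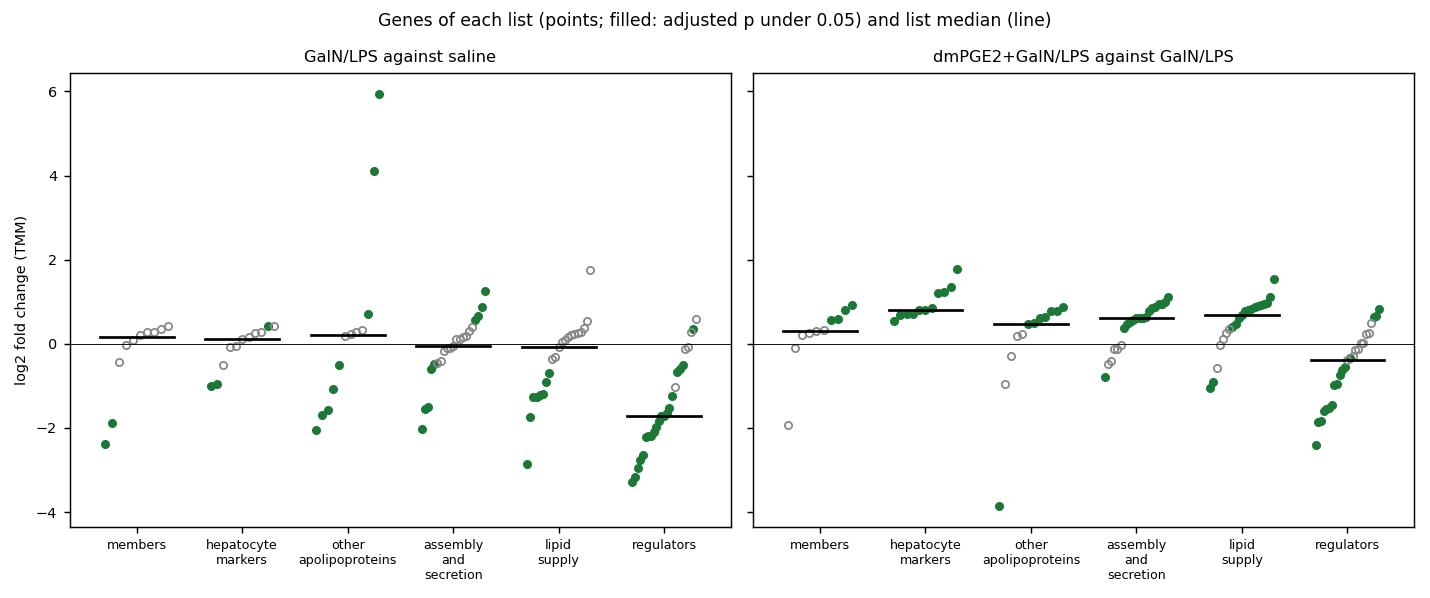
Log2 fold change (TMM) of the tested genes of 6 lists in 2 comparisons, with filled points where the adjusted p was under 0.05 and a line at the list's median. The regulators have a median of -1.71 in GalN/LPS against saline while the members' median is 0.15, and in pretreated against GalN/LPS the medians are -0.38 for regulators, 0.32 for members and 0.81 for hepatocyte markers.

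Of the other apolipoprotein genes 12 of 14 were tested. After GalN/LPS 3 were called higher and 5 lower than in saline livers (27.4% and 25.6% of all genes). In pretreated against GalN/LPS livers 7 were called higher and 1 lower (24.4% and 30.1% of all genes). With totals these counts were 1 and 2 (4.33% and 47.6%). Apof, an apolipoprotein that inhibits lipid transfer in human plasma, was 593 ± 109 CPM in GalN/LPS and 843 ± 65.6 CPM in saline livers (-0.51 ± 0.17, adjusted p = 0.0169). It was 1093 ± 150 CPM in pretreated livers, higher than in GalN/LPS livers on both scales (0.88 with TMM and 0.38 with totals). Apold1, an endothelial gene named for its similarity to apolipoprotein L, was 26.7 ± 11 CPM in GalN/LPS and 0.423 ± 0.269 CPM in saline livers (5.94 ± 0.58), and 1.79 ± 1.49 CPM in pretreated livers. All 10 sinusoidal endothelial markers were also called higher after GalN/LPS (median 2.60). Of 18 genes of high-density lipoprotein formation and plasma remodelling, 7 were called higher and 4 lower after GalN/LPS. In pretreated against GalN/LPS livers 10 were called higher and 4 lower (3 and 5 with totals). The shares of all genes are those given above. Lcat, the plasma enzyme that esterifies cholesterol on high-density lipoprotein, did not pass after GalN/LPS (0.03 ± 0.17) and was higher in pretreated livers with TMM (0.67 ± 0.17) but not with totals (0.18). Abca1, the transporter that lipidates apolipoprotein A-I, was 64.3 ± 10.05 CPM in GalN/LPS and 100 ± 11.6 CPM in saline livers (-0.64 ± 0.16, adjusted p = 0.00271). Its change in pretreated against GalN/LPS livers was 0.08 with TMM and -0.45 with totals, where it passed (adjusted p = 0.0451).

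Of the lipoprotein receptor and uptake genes 13 of 14 were tested, and 5 were called higher and 4 lower after GalN/LPS (27.4% and 25.6% of all genes). The scavenger receptor Msr1, a macrophage gene, was 72.8 ± 17.9 CPM in GalN/LPS and 4.97 ± 0.614 CPM in saline livers, and 28.4 ± 4.65 CPM in pretreated livers. Neutrophil markers, summed, were 257 to 411 CPM in pretreated, 660 to 876 CPM in GalN/LPS, 5.61 to 9.10 CPM in dmPGE2 and 4.63 to 19.4 CPM in saline livers. In pretreated against GalN/LPS livers 5 of the 13 receptor genes were called higher and 5 lower with TMM (24.4% and 30.1% of all genes). With totals 0 were called higher and 6 lower (4.33% and 47.6%). Lrp1, the remnant receptor of hepatocytes, rose with TMM (0.79 ± 0.17) but did not pass with totals (0.31, adjusted p = 0.117).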

How the data were processed

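Livers were sequenced as RNA libraries made with the NEBNext Ultra kit, per the labels' protocols, and reads were aligned with HISAT2 (no version given) to GRCm38, or mm10, per the submitters' processing notes. The authors deposited raw read counts per Ensembl gene, FPKM for the same libraries, and the gene length in bases. The sources used here give neither the read counter nor its annotation release or use of strand. The table calls its injured libraries ALF, and these columns were matched to the GalN/LPS samples, the remaining names being those of controls and dmPGE2 groups.

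A single edgeR fit (version 4.0.16, R 4.3.3) of the counts held the 13 libraries and a term for group. TMM scaling and the filter by group of edgeR were used, which kept 14280 genes (99.9% of counts) and all 10 members. The two-sided quasi-likelihood F test was used with Benjamini-Hochberg adjustment at 0.05 (common dispersion 0.0390, 9 residual and 6.80 prior degrees of freedom). Standard errors come from the fold change and the F statistic, and 95% intervals from the t distribution. CPM are scaled by TMM unless totals are named. Alternatives were library totals, DESeq2 1.42.0, no filter, the compared groups alone, limma 3.58.1 on log2(FPKM + 1) and log2(FPKM + 0.1), a replicate block and leaving out each library. Upper-quartile scaling was added after the data were seen, and the motifs were chosen then too. Counting intervals (95%) cover counting error only. The edgeR fit was tried on simulated counts in which few genes changed, alike in both directions and in a single group. Such counts cannot show how the scalings behave where many genes differ, as in these libraries. The permutation test was tried on known values.

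The members and lists were chosen with earlier results of these data known. All members are named. Of each list, the 4 genes with the smallest adjusted p in GalN/LPS against saline and in pretreated against GalN/LPS could be named, and Hnf4a, Lcat and Abca1 always, with the 3 genes most alike to each member. Some genes that this rule allows are not reported here. Mttp shares 457 of 6206 exonic bases with Trmt10a, which had 1016 counts against 76174. FPKM were deposited with a library denominator close to the TMM factor, so they are no independent check on scaling.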

Additional observations from a re-analysis of the deposited data

Results flagged for a closer look

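In 5 members the effect of dmPGE2 differed between injured and uninjured livers by the test of the difference itself, the interaction term of edgeR with TMM scaling. The term was 1.19 for Apoa1, 1.05 for Apoa2, 0.78 for Apoc1, 0.83 for Apoc3 and 0.69 for Apoe, all on the log2 scale. Of all genes tested, 15.4% passed above 0 and 19.6% below. The Apoc1 and Apoe calls were lost in most fits that left out a library, and those of Apoc1, Apoc3 and Apoe with a replicate block. In each of the 5 members pretreated livers had a positive log2 fold change against GalN/LPS livers (0.60, 0.57, 0.21, 0.31 and 0.32). The dmPGE2 livers had a negative one against saline livers (-0.59, -0.48, -0.57, -0.52 and -0.37). Of these, Apoa1 and Apoa2 passed the test in the injured livers and none in the uninjured. With library totals Apoa1 alone passed (0.61), and the terms of Apoa2, Apoc1, Apoc3 and Apoe were 0.49, 0.23, 0.27 and 0.12. TMM factors were 0.683 to 0.830 in pretreated and 0.904 to 1.14 in GalN/LPS libraries, and the part of this difference in the terms was not tested. The time after dmPGE2 may also differ between the groups, which cannot be told apart from the effect of injury here. A screen for single libraries far from the rest of their group covered the 27 sets of values over the 4 pretreated libraries, and 0 stood out.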

How the results depend on the processing

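Apoa5 after GalN/LPS and in pretreated against saline, and Apob in pretreated against GalN/LPS and against saline, kept their direction and call under every alternative run. With library totals the members called higher were 1 in pretreated against GalN/LPS (4.33% of all genes), 2 in pretreated against saline (11.8%) and 1 in the interaction (1.28%), and 1 was called lower in pretreated against GalN/LPS (47.6%). With DESeq2, 2 members were called higher in GalN/LPS against saline (27.8% of all genes) and 2 lower in dmPGE2 against saline (0.98%). With no filter on low counts 4 were higher in pretreated against saline (15.9%). On log2(FPKM + 0.1), 2 were higher in pretreated against GalN/LPS (21.9%), 4 in pretreated against saline (31.7%) and 3 in the interaction (13.9%), and on unfiltered log2(FPKM + 1) these counts were 2 (10.3%), 2 (14.9%) and 2 (5.83%).

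Signs reversed with totals for Apoc3 after GalN/LPS (-0.10), for Apoa4 (-0.23), Apoc1 (-0.29), Apoc3 (-0.18) and Apoe (-0.18) in pretreated against GalN/LPS, and for Apoa4 in dmPGE2 against saline (0.037). In pretreated against saline they did for Apoa1 (-0.12), Apoc1 (-0.20), Apoc3 (-0.28) and Apoe (-0.019), and in the interaction for Mttp (-0.20), Apoa4 (-0.27) and Apoa5 (-0.36). Apoc3 after GalN/LPS was -0.045 with no filter, and the Apoc2 interaction was 0.20 on log2(FPKM + 1), filtered or not. The causes were not tested.

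Leaving out single libraries gave 0 to 1 members higher (21.7% to 27.9% of all genes) and 1 to 2 lower (22.3% to 26.4%) in GalN/LPS against saline, 3 to 6 higher in pretreated against GalN/LPS (17% to 24.8%), 5 to 7 in pretreated against saline (29.7% to 34.6%) and 3 to 6 in the interaction (9.43% to 18.4%). Signs changed in such fits for Apoc3 (-0.10 to 0.23), Apoa1 (-0.15 to 0.0010) and Apoa2 (-0.040 to 0.33) after GalN/LPS, for Apoa4 (-0.019 to 0.43) and Apoa5 (-0.26 to 0.24) in pretreated against GalN/LPS, and for Apoa4 in dmPGE2 against saline (-0.39 to 0.21).

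Replicate numbers did not pair the libraries: of 18 pairs with the same number, 1 had a correlation of deviations above 0.1 (range -0.36 to 0.13). With the replicate block 2 members were called higher in pretreated against GalN/LPS (20.8% of all genes), 4 in pretreated against saline (32.1%) and 2 in the interaction (10.9%).

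As a share of summed FPKM, the members' differences were -0.437 percentage points for GalN/LPS against saline, 0.219 for pretreated against GalN/LPS, -1.71 for dmPGE2 against saline and -0.217 for pretreated against saline. Apoc2 had 139 counts in all, so its values are imprecise, and the cause of its low counts was not tested.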
